A study of Rattus norvegicus with 16 samples.

Results

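The genes described here encode proteins of the mitochondrial ribosome, the particle that translates the small set of messenger RNAs transcribed from mitochondrial DNA. Its products are core subunits of the respiratory chain and of ATP synthase, which a contracting muscle fibre depends on. The ribosome has a small subunit, which reads the messenger RNA, and a large subunit, which forms the peptide bond. All of its proteins are encoded in the nucleus and imported, and many have no counterpart in bacteria. The members were the rows of the deposited gene table whose symbol begins with Mrpl or Mrps followed by a digit. The rule took 69 of 17147 genes, 41 named Mrpl and 28 named Mrps. The prefix does not always name the subunit. Mrps18a and Mrps30 are proteins of the large subunit, and Mrps36 is a subunit of 2-oxoglutarate dehydrogenase, an enzyme of the citric acid cycle.

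The supraspinatus, a muscle of the rotator cuff of the shoulder, was taken from Sprague Dawley rats in 4 groups of 4 libraries. The 0-day group was unoperated. The 10-, 30- and 60-day groups were named for the days since a full-thickness supraspinatus tear on both sides that was made together with suprascapular neurectomy, which removes part of the nerve to this muscle. The tear, the loss of nerve supply and surgery as such were present in every operated group, so they cannot be told apart. Age, sex and which libraries share a rat are not given in the sources used here, and p-values therefore measure the spread between libraries.

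Of the 69 members, 66 had enough fragments to be tested, among 11658 tested genes. Mrpl30 and Mrpl36 were listed at 0 fragments in all 16 libraries, and Mrpl1 had 3 fragments, all in 1 library of the 30-day group. Nsun4 and Yme1l1, genes of the lists used further on, were listed at 0 in all libraries too, and whether annotation or counting bears on these zeros was not tested. Library totals ran from 17.2 to 39.9 M fragments (M, mega), so a count of 3, the smallest taken as detectable, corresponded to 0.0752 to 0.175 fragments of a gene per 1 M fragments (CPM). The least covered tested member, Mrps10, still had 139 fragments in its lowest library. All 8 myofibre markers were detected in every library, and their summed level averaged 223641 CPM in unoperated muscle and 66525, 138024 and 155319 CPM in the 10-, 30- and 60-day groups. Levels below are in CPM after TMM scaling, which assumes that most genes do not differ between libraries. CPM are not corrected for gene length, so they compare 1 gene across libraries and not 1 gene with another.

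At 10 days most mitochondrial ribosomal protein genes were lower than in unoperated muscle, relative to the other genes of the same libraries. Of the 66 tested members, 51 (77.3%) fell and 3 (4.55%) rose, where 62.7% of all tested genes passed the same test, 29.4% as lower and 33.3% as higher (edgeR quasi-likelihood test, Benjamini-Hochberg adjusted p under 0.05). The members' median log2 fold change was -0.64, from -1.53 to 0.43, against 0.06 over all tested genes. The 4 libraries of the 10-day group all lay below the 4 unoperated ones for 49 members and all above them for 3, where 27.8% and 31.2% of all tested genes were so placed. A fall of at least 2-fold was called for 6 members, a count that is not set against all tested genes here.

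The direction of this difference depended on how libraries were scaled. The 10 most abundant genes of a library took 24.6% ± 0.604 (SD, n = 4) of fragments at 0 days and 13.3% ± 0.960 at 10 days, and the mean TMM factor was 0.763 at 0 days and 1.20 at 10 days. With library totals and no further factor, the median of all tested genes moved to 0.72 and that of the members to 0.02. Called were 18 members as lower and 26 as higher, where 80.2% of all tested genes were called, 10.1% as lower. The distance between the members' median and that of all genes was -0.70 under both scalings. A change of library factors shifts all genes nearly alike, so this distance was bound to stay and is no check of either scaling. As a share of all fragments, the members summed to 0.369% ± 0.0139 in unoperated muscle and to 0.387% ± 0.00644, 0.445% ± 0.0129 and 0.441% ± 0.0434 in the 10-, 30- and 60-day groups (SD, n = 4 each). Falls are therefore stated relative to the other genes, and those that were also called lower with library totals are named as such.

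**Figure D1:**
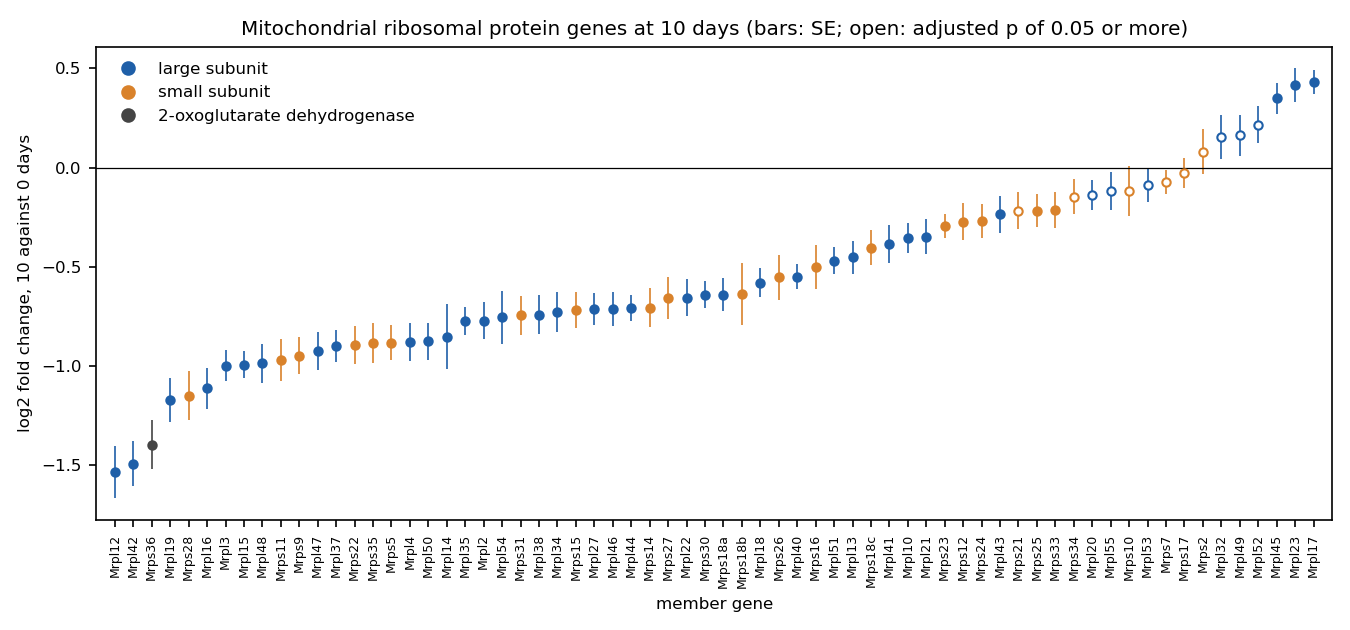
Log2 fold change of each of the 66 tested members at 10 against 0 days on TMM-scaled counts. Points are fitted values, bars are SE, filled points have an adjusted p under 0.05 and colours mark the subunit. Most points lie below 0 and 3 filled ones lie above it. With library totals the members' median is 0.02, against 0.72 for all tested genes.

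The largest falls at 10 days were in Mrpl12, Mrpl42, Mrps36, Mrpl19 and Mrps28. Mrpl12 belongs to the stalk of the large subunit, which recruits translation factors. It measured 214, 216, 254 and 236 CPM in the unoperated libraries and 92.8, 74.0, 70.1 and 81.0 CPM at 10 days. Its highest 10-day library lay well below its lowest unoperated one, a log2 fold change of -1.53 ± 0.13 (SE) with an adjusted p of 3.8e-08 (edgeR).

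Mrpl42, a large-subunit protein specific to mitochondria, measured 85.2, 86.0, 88.0 and 90.4 CPM at 0 days and 27.7, 31.7, 32.1 and 32.8 CPM at 10 days. Each group was tight and the groups did not overlap, with a change of -1.49 ± 0.11 (SE; edgeR adjusted p = 9.84e-09). Mrps36, the dehydrogenase subunit, measured 190, 182, 210 and 204 CPM against 79.8, 70.7, 69.9 and 78.6 CPM. Its fall of log2 -1.40 ± 0.12 (SE; edgeR adjusted p = 5.35e-08) was among the largest, although the protein is not ribosomal. The log2 change was -1.17 in Mrpl19 and -1.15 in Mrps28, whose products belong to the large and the small subunit. All 5 were also called lower with library totals, at log2 -0.87 for Mrpl12, -0.83 for Mrpl42, -0.74 for Mrps36, -0.51 for Mrpl19 and -0.49 for Mrps28.

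Mrpl17, Mrpl23 and Mrpl45 were the 3 members that rose at 10 days. All are large-subunit proteins, and the products of Mrpl23 and Mrpl45 sit around the opening through which the new peptide leaves, where Mrpl45 also anchors the ribosome to the inner membrane. Mrpl17 measured 139, 143, 151 and 143 CPM at 0 days and 187, 210, 189 and 191 CPM at 10 days. Every 10-day library was higher, with a change of 0.43 ± 0.062 (SE; edgeR adjusted p = 1.34e-05). Mrpl45 measured 107, 103, 101 and 101 CPM against 125, 143, 128 and 130 CPM, a rise of log2 0.35 ± 0.077 (SE; edgeR adjusted p = 0.000821). Mrpl23 rose by 0.42 on the log2 scale, again without overlap. All 3 stayed called higher with library totals, at log2 1.09 for Mrpl17, 1.07 for Mrpl23 and 1.01 for Mrpl45.

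The ratio of Mrpl12 to Mrpl17 fragments within a library does not depend on scaling. It was 1.54, 1.51, 1.69 and 1.65 in the unoperated libraries and 0.496, 0.352, 0.371 and 0.425 at 10 days. The ratio was 1.06 ± 0.217 at 30 days and 1.47 ± 0.170 at 60 days (SD, n = 4 each). This pair was chosen as the largest fall and the largest rise, so the ratio describes them and is no test. RefSeq lists a pair of pseudogenes named for Mrpl17, a pair for Mrpl42 and 1 each for Mrpl23 and Mrpl45, none of which is a row of the table. How fragments shared with such copies were counted is not given in the sources used here, and the values of these members are uncertain to that extent. Of the 68 members matched in RefSeq, 22 have named pseudogenes, 37 in total, and 14 overlap another protein-coding gene, among them Mrpl10 with Lrrc46, Mrpl49 with Syvn1, Mrpl55 with Guk1 and Mrps2 with Pierce1. The library kit does not mark strand, so fragments of a shared stretch cannot be assigned with certainty.

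The promoters of these opposite members are shown because they differed in a motif of NRF1, a factor known to act at many nuclear genes for mitochondrial proteins. Promoter sequences are from RefSeq on the rat assembly GRCr8, which is not the build of the counts, and cover the 250 bases before the annotated start. The Mrpl12 window is chr10:106256496-106256745 on the plus strand, and the Mrpl17 window is chr1:169575700-169575949 on the minus strand. Capitals mark the NRF1 motif (GCGC, then A and any base, then GCGC, searched on both strands), which was found in the Mrpl17 window and not in that of Mrpl12.
Mrpl12: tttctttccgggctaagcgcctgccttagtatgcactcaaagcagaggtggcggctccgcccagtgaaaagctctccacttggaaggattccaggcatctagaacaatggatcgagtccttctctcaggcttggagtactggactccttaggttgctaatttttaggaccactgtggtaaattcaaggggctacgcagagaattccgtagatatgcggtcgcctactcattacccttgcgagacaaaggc
Mrpl17: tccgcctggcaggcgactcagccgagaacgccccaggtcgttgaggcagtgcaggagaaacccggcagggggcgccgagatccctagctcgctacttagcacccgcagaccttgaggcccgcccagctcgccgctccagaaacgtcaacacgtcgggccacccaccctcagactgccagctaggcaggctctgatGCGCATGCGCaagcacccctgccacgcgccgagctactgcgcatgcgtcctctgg

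Of the 69 members, 54 had a promoter in the RefSeq table. The NRF1 motif was in 6 of these 54, or 11.1%, in 4.17% of all 27457 promoters of the same length and in 5.45% of the 19005 of protein-coding genes. The 6 matches began 55 bases before the start in Mrpl17, 138 in Mrpl30, 62 in Mrpl32, 132 in Mrpl44 and 20 in Mrps18b, and at 229 in Mrpl45, which held a further match. These lines give 30 bases around each match, since they show which letters filled the free position.
Mrpl17: aggctctgatGCGCATGCGCaagcacccct
Mrpl30: tgacgccactGCGCCTGCGCcgtcttctat
Mrpl32: tttgacctgtGCGCATGCGCagggaacctg
Mrpl44: agaagcacttGCGCATGCGCactatgctag
Mrpl45: aaagcctcctGCGCAGGCGCagctggctct
Mrps18b: tccttgtccgGCGCATGCGCagtcgttctt

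Members with this motif did not share a direction at 10 days on TMM scaling. The log2 change was 0.43 in Mrpl17, 0.35 in Mrpl45, 0.15 in Mrpl32, -0.71 in Mrpl44 and -0.64 in Mrps18b, while Mrpl30 was listed at 0. With library totals Mrpl17 (1.09), Mrpl45 (1.01) and Mrpl32 (0.81) were called higher. Mrpl44 (-0.05) and Mrps18b (0.02) were then not called. The ETS motif CCGGAAGT, bound by GABP, was in 9.26% of member promoters, 3.29% of all promoters and 4.16% of the protein-coding ones. The YY1 motif AANATGGC was in 11.1%, 4.32% and 4.27%, and the E-box CACGTG in 7.41%, 5.79% and 6.38%. All were searched on both strands, and none of these motifs contains another. A match is only a stretch of letters and says nothing of binding.

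Both subunits were lower at 10 days relative to the other genes. On TMM scaling 31 of 40 tested members of the large subunit fell and 3 rose, with a median of log2 -0.68. In the small subunit 19 of 25 fell and 0 rose, with a median of -0.50. Proteins with a bacterial counterpart and those specific to mitochondria had like medians, -0.65 over 37 members and -0.64 over 28. They fell in 27 and in 23 of these members. With library totals the large subunit had 11 lower and 14 higher calls and a median of -0.02, and the small subunit 6 and 12 and a median of 0.16, against 0.72 for all tested genes.

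Members of the large subunit ranged widely. Mrpl10, the stalk base to which Mrpl12 binds, fell by 0.35 on the log2 scale (edgeR adjusted p = 0.000465), against 1.53 for Mrpl12. With library totals the sign of Mrpl10 turned to 0.30. Mrpl3, near the site where peptide bonds form, measured 126, 120, 123 and 119 CPM at 0 days and 64.0, 59.5, 56.8 and 64.0 CPM at 10 days. The groups were far apart for their spread, with a fall of 1.00 that was also called with library totals (-0.34). Mrpl44, which resembles a ribonuclease, fell by 0.71 with TMM scaling, and its value with library totals was -0.05 (edgeR adjusted p = 0.492).

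In the small subunit, Mrps12 and Mrps7 lay nearer 0 than the members' median. Mrps12, a protein of the decoding centre, measured 29.0, 27.7, 33.3 and 31.5 CPM at 0 days and 24.6, 26.5, 22.5 and 26.9 CPM at 10 days. Its fall of log2 0.27 (edgeR adjusted p = 0.0192) passed, but was lost without unoperated library 3 or 4 or without 10-day library 3 (adjusted p up to 0.0827), and its sign turned to 0.39 with library totals. Mrps7, of the head, measured 79.6, 74.2, 84.2 and 79.6 CPM against 72.7, 80.3, 75.3 and 73.9 CPM. These ranges overlapped (log2 -0.07, edgeR adjusted p = 0.325). Mrps22, specific to mitochondria and known from inherited respiratory chain disease, fell by 0.89 and was also called lower with library totals (-0.24).

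Of the 3 Mrps18 genes, which descend from 1 bacterial protein, each fell on TMM scaling, and the sign of each turned with library totals. The TMM values were -0.64 for Mrps18a, -0.64 for Mrps18b and -0.40 for Mrps18c, and those with library totals were 0.02, 0.02 and 0.26. Mrps30 fell by 0.64 on TMM scaling and stood at 0.02 with library totals.

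**Figure D2:**
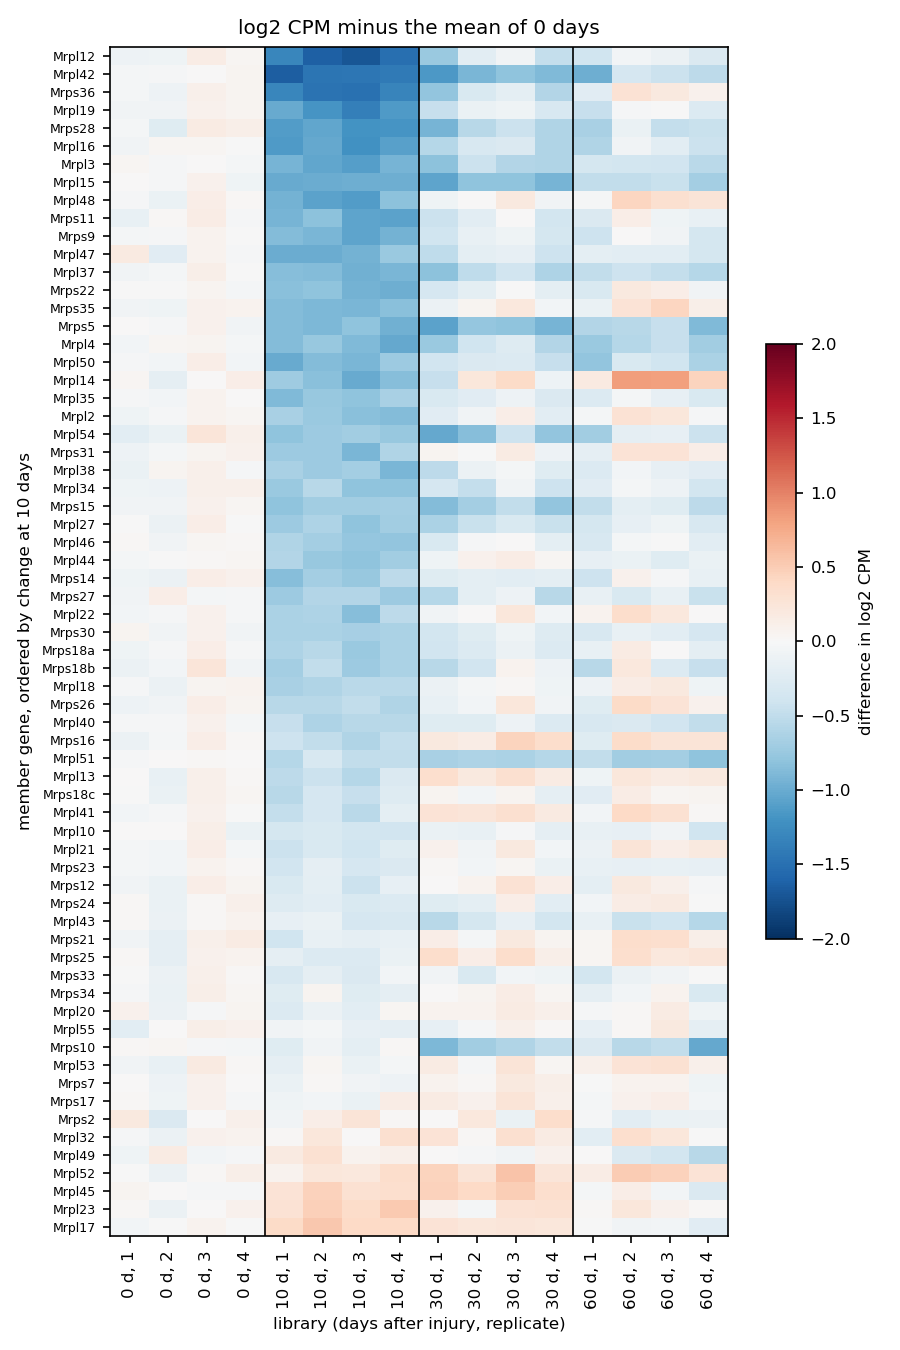
Log2 CPM (TMM-scaled) of each tested member in each of the 16 libraries, minus the gene's mean at 0 days, with genes ordered by their change at 10 days. The 4 columns at 10 days are blue for most rows, of which 51 are called lower; with library totals 18 of these 51 stayed called lower, and the rows of Mrpl17, Mrpl23 and Mrpl45 at the bottom are red there.

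The same libraries held less RNA of the respiratory chain per fragment of these genes. Of 76 tested genes of the respiratory chain and ATP synthase, 74 fell and 0 rose at 10 days, with a median of log2 -1.30, and with library totals 63 fell and 6 rose, with a median of -0.65. Respiratory chain fragments per member fragment, a ratio free of scaling, were 9.60, 9.91, 9.89 and 9.78 at 0 days and 5.88, 5.07, 5.13 and 5.35 at 10 days. The ratio was 8.33 ± 0.746 at 30 days and 9.89 ± 0.388 at 60 days (SD, n = 4 each). The groups at 0 and 10 days lay far apart for their spread, and the 60-day libraries, from 9.32 to 10.2, spanned the unoperated range.

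Proteins of the cytosolic ribosome, which translates nuclear messages, were placed on the other side of 0. Of 73 tested genes, 54 rose and 1 fell at 10 days, with a median of 0.36, and with library totals 72 rose and 1 fell, with a median of 1.01. At 60 against 10 days 27 of them fell and 3 rose, with a median of -0.16, where the mitochondrial members had 48 rises and 6 falls and a median of 0.43. The comparisons at 10, 30 and 60 days share the unoperated libraries, so their values are given side by side and not as independent results.

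**Figure D3:**
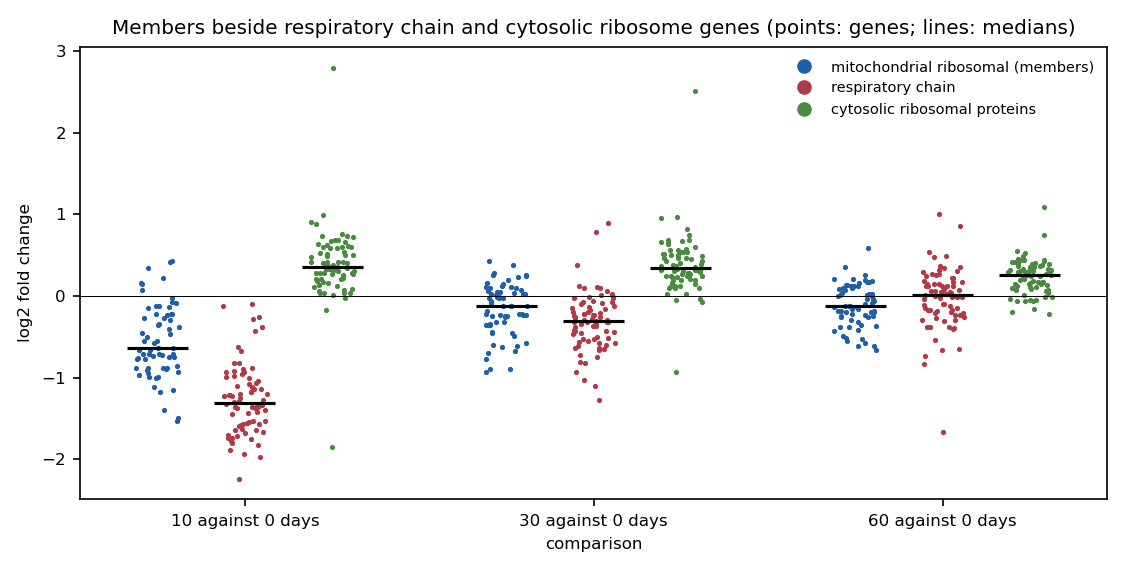
Log2 fold change against 0 days of the tested members, of 76 respiratory chain genes and of 73 cytosolic ribosomal protein genes, TMM-scaled, with 1 point per gene and a line at each median. At 10 days the medians are -0.64, -1.30 and 0.36. With library totals the members' median is 0.02, against 0.72 for all tested genes.

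By 30 and 60 days the members were closer to the unoperated level on TMM scaling. With library totals their medians, 0.37 and 0.29, were farther from it than at 10 days, but below those of all tested genes, 0.54 and 0.45. At 30 days 25 of 66 were called lower and 7 higher, where 64.6% of all tested genes were called, 30.9% as lower and 33.7% as higher. The members' median was -0.12, from -0.93 to 0.43, against 0.05 for all tested genes. At 60 days 24 were called lower and 4 higher, where 59% were called, 29.1% as lower and 29.9% as higher, and the median was again -0.12, against 0.04. As shares of the members, 37.9% were lower and 10.6% higher at 30 days and 36.4% and 6.06% at 60 days, so the share called lower was little above that of all genes and the share called higher was below it. The split turned with the scaling: upper-quartile factors gave 16 lower and 15 higher at 30 days and 11 lower and 17 higher at 60 days. Library totals gave 5 and 45 at 30 days and 3 and 44 at 60 days. The calls of all genes turned with it too. Upper-quartile factors called 65.6% of all tested genes at 30 days, 24.8% as lower, and 61.4% at 60 days, 22.4% as lower. Library totals called 75.1% at 30 days, 11.9% as lower, and 69.9% at 60 days, 12.1% as lower. Without library 4 of the 60-day group 14 members were called lower at 60 days, and without its library 1, 13 were called higher. Groups did not overlap for 24 members as lower and 7 as higher at 30 days, where 29.1% and 31.1% of all genes were so placed, and for 17 and 2 at 60 days, where 26% and 24% were.

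The members with the largest falls at 30 days were Mrpl42, Mrps5, Mrpl15, Mrpl54 and Mrps15, at log2 -0.93, -0.89, -0.89, -0.77 and -0.70, and all 5 were also called lower with library totals. Mrps5, a small-subunit protein close to the messenger RNA entrance, measured 92.7, 91.1, 98.0 and 88.4 CPM in unoperated muscle, 50.9, 49.6, 53.2 and 47.3 CPM at 10 days, then 43.8, 54.1, 53.0 and 48.3 CPM in the 30-day group and 61.3, 63.3, 67.0 and 50.3 CPM in the 60-day group. Every operated library of Mrps5 lay below every unoperated one. The change was -0.89 ± 0.086 at 30 days (edgeR adjusted p = 2.06e-07) and -0.62 ± 0.086 at 60 days (SE; edgeR adjusted p = 1.64e-05).

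Mrpl51, a large-subunit protein specific to mitochondria, had the largest fall at 60 days. It measured 115, 118, 119 and 117 CPM in unoperated muscle, 78.8, 94.0, 83.2 and 82.9 CPM at 10 days, then 75.1, 76.3, 75.6 and 78.8 CPM in the 30-day group and 83.2, 72.7, 72.9 and 66.9 CPM in the 60-day group. No operated library reached the unoperated range, and the later groups were not above the 10-day group. The log2 change at 60 days was -0.67 ± 0.069 (SE; edgeR adjusted p = 8.07e-07), and -0.26 with library totals, which was also called.

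Mrps5, Mrpl4, Mrps10 and Mrpl42 followed at 60 days, at log2 -0.62, -0.61, -0.58 and -0.55. Mrpl4 lines the tunnel of the large subunit, and Mrps10 belongs to the head of the small one. Of these, Mrps10 (-0.18, edgeR adjusted p = 0.198) and Mrpl42 (-0.14, edgeR adjusted p = 0.294) were no longer called with library totals. Mrps10 stood apart in its time course on TMM scaling. It measured 12.9, 13.0, 12.5 and 12.3 CPM in unoperated muscle, 10.7, 12.1, 11.1 and 12.8 CPM at 10 days, then 6.73, 7.79, 8.32 and 8.97 CPM in the 30-day group and 10.3, 8.58, 8.94 and 6.18 CPM in the 60-day group. Its 10-day libraries overlapped the unoperated ones (log2 -0.12, edgeR adjusted p = 0.438, against 0.54 and called higher with library totals), while all later libraries lay below every 0- and 10-day library. RefSeq names 1 pseudogene of Mrps10.

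Few members were called above the unoperated level late on TMM scaling, which library totals turned as given above. At 30 days the largest rises were in Mrpl45 (log2 0.43), Mrpl52 (0.38), Mrps16 (0.29), Mrpl13 (0.25) and Mrpl41 (0.25). The calls of Mrps16 and Mrpl41 were lost in 4 and 5 of the fits that left out 1 library, as given with the processing checks. At 60 days Mrpl14, Mrpl52, Mrpl48 and Mrps25 were called higher (TMM), the last of them named after its value was seen.

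Mrpl14, a protein of the large subunit that faces the small one, had the largest rise at 60 days. It measured 72.2, 61.7, 70.1 and 76.6 CPM in unoperated muscle, 42.9, 39.1, 34.7 and 38.8 CPM at 10 days, then 50.9, 81.5, 91.1 and 65.1 CPM in the 30-day group and 78.8, 124, 124 and 95.2 CPM in the 60-day group. It was lowest at 10 days, spread widely at 30 and 60 days, and lay above every unoperated library at 60 days. The change at 60 days was 0.59 ± 0.16 (SE; edgeR adjusted p = 0.00609). Mrpl14 overlaps Tmem63b in RefSeq.

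**Figure D4:**
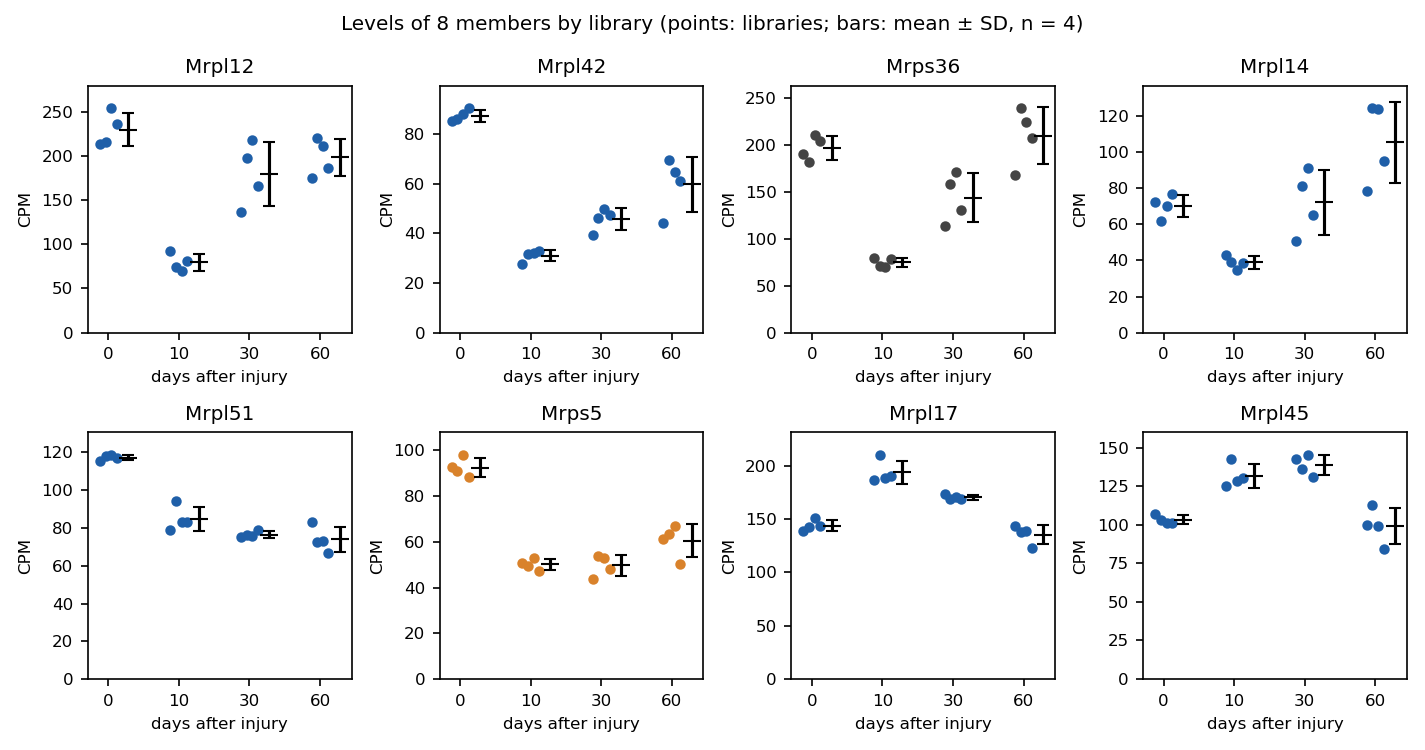
CPM (TMM-scaled) of 8 members in each library against days after injury; points are libraries and bars the mean ± SD of 4. Mrpl12, Mrpl42, Mrps36 and Mrpl14 are lowest at 10 days, Mrpl51 and Mrps5 stay below the unoperated libraries throughout, and Mrpl17 and Mrpl45 are above them at 10 and 30 days.

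Between 10 and 60 days most members rose. Of 66, 48 rose and 6 fell, where 61.1% of all tested genes were called, 29.1% as higher and 31.9% as lower. The median was 0.43, from -0.52 to 1.49, against -0.01 for all tested genes. Groups did not overlap for 44 members as higher and 5 as lower, where 23.7% and 27.5% of all genes were so placed. With library totals 32 rose and 12 fell, where 63.2% of all genes were called, 45.5% as lower. The median was then 0.18 against -0.26 for all genes, so the sign of the members' median held under both scalings.

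The largest rises were in Mrps36 (log2 1.49), Mrpl14 (1.44), Mrpl12 (1.32), Mrpl48 (1.24) and Mrps35 (1.07). Mrps36 measured 168, 239, 224 and 208 CPM at 60 days, all above its 10-day libraries of 69.9 to 79.8 CPM (edgeR adjusted p = 6.87e-08). Mrpl48 measured 51.7, 47.1, 45.8 and 56.1 CPM at 10 days and 97.6, 134, 125 and 119 CPM at 60 days, again without overlap, and it is another of the members with an overlapping gene, Rab6a. The falls were in Mrpl17 (-0.52), Mrps10 (-0.46), Mrpl49 (-0.45), Mrpl45 (-0.41), Mrpl23 (-0.33) and Mrpl51 (-0.20). Mrpl17 measured 143, 138, 138 and 123 CPM at 60 days, below each of its 10-day libraries (edgeR adjusted p = 2.56e-06). The 5 named rises and the first 5 falls kept their calls with library totals. Mrpl51 was named after its value was seen.

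Most of that rise fell between 10 and 30 days. In that interval 46 members rose and 3 fell, where 47.3% of all tested genes were called, 23% as higher and 24.3% as lower, and the median was 0.40. Groups did not overlap for 44 members as higher and 2 as lower, where 21% and 22.8% of all genes were so placed. The 3 that fell were Mrpl17, Mrpl23 and Mrps10, at log2 -0.19, -0.25 and -0.56. Between 30 and 60 days 7 rose and 3 fell, where 22.6% of all genes were called, 10.3% as higher and 12.4% as lower. The split turned with library totals, to 4 higher and 8 lower and a median of -0.03, against 0.05 on TMM scaling. Of all tested genes, library totals called 24.5%, 18.0% as lower, with a median of -0.09. Groups did not overlap for 1 member as higher and 5 as lower, where 8.87% and 11.3% of all genes were so placed. The falls were in Mrpl17 (-0.33), Mrpl45 (-0.49) and Mrpl44 (-0.21), and the rises included Mrpl14 and Mrps36, each at 0.55. Calls in this interval depended on single libraries: 13 members were higher without library 1 and 3 without library 2 or 3 of the 60-day group, and 3, 12 and 4 were higher without library 1, 3 and 4 of the 30-day group.

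Over the 4 groups together 58 of 66 members were called, where 84.7% of all tested genes were. The mean TMM-scaled level was lowest at 10 days for 54 members, and the mean share of all fragments was lowest at 10 days for 26 and at 0 days for 34. Mrpl32, Mrpl55, Mrps17, Mrps2 and Mrps34 were called in none of the 6 comparisons nor over the 4 groups on TMM scaling. With library totals each was called higher at 10 days, at log2 0.81 for Mrpl32, 0.54 for Mrpl55, 0.63 for Mrps17, 0.74 for Mrps2 and 0.51 for Mrps34. The median of all tested genes was then 0.72, with 80.2% of them called and 10.1% as lower. Mrps34, a small-subunit protein specific to mitochondria, ranged from 43.7 to 52.1 CPM in unoperated muscle, then from 40.8 to 50.2, from 48.6 to 53.6 and from 38.9 to 50.7 CPM in the operated groups in order of time, and these ranges overlapped. A p that misses the threshold does not show that these genes were level.

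**Figure D5:**
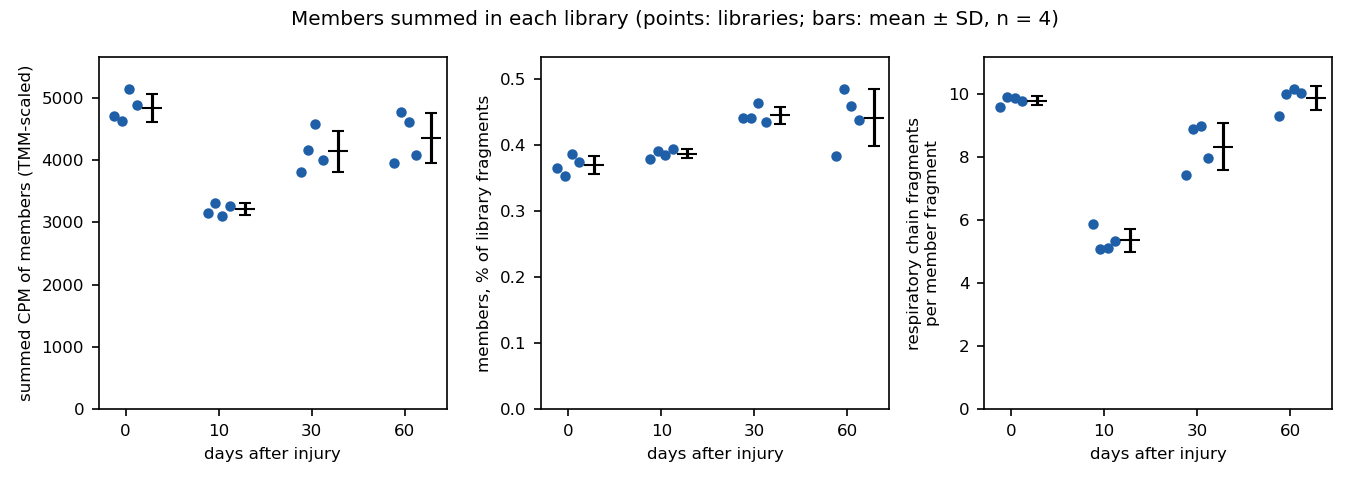
Sum over the members in each library against days after injury, as TMM-scaled CPM, as percent of all fragments, and as respiratory chain fragments per member fragment; points are libraries and bars the mean ± SD of 4. The scaled sum is lowest at 10 days (3106 to 3313 CPM) while the percent of fragments is not (0.379 to 0.394%), and the ratio is lowest at 10 days.

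The members' summed level was 4841 ± 230 CPM in unoperated muscle and 3211 ± 96.0, 4147 ± 329 and 4353 ± 401 CPM in the 10-, 30- and 60-day groups (SD, n = 4 each). Libraries at 60 days were uneven, at 3948, 4771, 4613 and 4078 CPM. Markers of several cell types moved beside the members. Of 8 myofibre markers 7 fell and 1, Mb, rose at 10 days, while 7 of 8 macrophage markers and 5 of 6 fibroblast markers rose and all 5 endothelial markers fell. With library totals the myofibre counts were the same, all 8 macrophage and all 6 fibroblast markers rose, and 1 endothelial marker fell. Of 5 adipocyte markers 1 fell and of 5 Schwann cell markers 2 fell at 10 days, with no rise (with library totals, 1 fell in each list and 2 Schwann markers rose), and 4 and 5 rose at 60 days. Summed macrophage markers ran from 22.2 to 41.1 CPM at 0 days and 72.6 to 100.4 at 10 days, fibroblast markers from 455 to 974 and 927 to 2856 CPM, and myofibre markers from 215876 to 233468 and 62159 to 69757 CPM. Summed adipocyte markers ran from 188 to 228 CPM at 0 days, 70.4 to 133 at 10 days, 125 to 165 at 30 days and 203 to 382 at 60 days, and Schwann markers from 50.5 to 79.8, 22.7 to 44.1, 47.2 to 81.6 and 93.8 to 214 CPM. Both sums were thus lower at 10 days than at 0 days without overlap, as the members' sum was. No marker of these lists was at 0 in any library. In a piece of tissue, fewer cells of a type and less RNA per cell cannot be told apart, and the part of cell makeup in these changes was not tested.

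Within the list, most members followed the others over the 16 libraries. The correlation of a member's log2 CPM with the mean of the other members was highest in Mrps9 (r = 0.99) and lowest in Mrpl17 (-0.75), Mrpl23 (-0.67), Mrpl49 (-0.52) and Mrpl45 (-0.47). Outside it, the genes most like the members' mean were Zbed5, Tnnt3 and Tufm (r = 0.98 each, 16 libraries, members' mean log2 CPM). Tnnt3 is the troponin T of fast muscle fibres, and Tufm is the elongation factor that brings transfer RNA to the mitochondrial ribosome. Libraries of a group share its level, so these values describe a likeness and carry no p. Mrps9 was named after its value was seen.

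Rows outside the rule bear on the same ribosome. The table spells mrpl9, mrpl11 and mrpl24 in lower case, and all 3 fell at 10 days on TMM scaling, at log2 -1.07, -0.91 and -0.35, while mrpl24 was called higher with library totals, at 0.31. The stalk protein mrpl11 measured 62.6, 63.6, 69.2 and 68.5 CPM at 0 days and 34.8, 33.3, 33.8 and 38.4 CPM at 10 days, without overlap, and was also called with library totals (-0.25). Mrpl28, Mrpl33, Mrpl39 and Mrps6 had no row under these symbols, in the rule's spelling or in lower case. The genes of mitochondrial DNA were not analysed here.

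Of 7 mitochondrial ribosomal proteins that carry other symbols, 4 fell and 0 rose at 10 days, against 1 and 3 with library totals. Gadd45gip1, a large-subunit protein at the peptide exit, measured 127, 117, 149 and 128 CPM at 0 days and 54.2, 52.6, 47.5 and 47.0 CPM at 10 days. It fell by 1.37 on the log2 scale (edgeR adjusted p = 1.26e-09) and by 0.71 with library totals, which was also called. Chchd1, Ict1, which can release stalled peptides, and Ptcd3, which guides messenger RNA, were at -0.80, -0.63 and -0.54, and none of the 3 stayed called with library totals, where the sign of Ict1 and Ptcd3 turned. Dap3, a GTP-binding protein of the small subunit, measured 43.1, 38.5, 40.0 and 40.7 CPM at 0 days and 39.8, 43.1, 36.6 and 39.3 CPM at 10 days. Those groups overlapped (log2 -0.03, edgeR adjusted p = 0.785), while with library totals Dap3 was called higher, at 0.63. Dap3 was called higher at 30 days (0.51) and at 60 days (0.36). Aurkaip1 (-0.20) and Mrp63 (-0.03) were not called at 10 days.

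The machinery around the ribosome was less uniform. Of 14 translation factors tested, 9 fell and 1 rose at 10 days, with a median of log2 -0.30, and 11 fell and 1 rose at 60 days, with a median of -0.34. The split at 60 days was not kept by upper-quartile factors, with 5 falls and 1 rise, or by library totals, with 3 and 3. The median with library totals was 0.06, against 0.45 for all tested genes. Guf1, a GTPase that acts on the translating ribosome, fell from 106 ± 4.42 to 40.3 ± 0.521 CPM (SD, n = 4 each), a log2 change of -1.39 (edgeR adjusted p = 1.5e-09). Mtfmt, which formylates the initiator methionine on its transfer RNA, rose from 14.8 ± 1.17 to 28.9 ± 1.52 CPM, at 0.97 (edgeR adjusted p = 2.85e-08). Of 22 assembly and ribosomal RNA modification factors 13 fell and 1 rose, with Rbfa at -1.03 and Rpusd3 at 0.31. Of 22 genes of mitochondrial transcription and RNA processing 14 fell and 3 rose, with Fastk at -0.80 and Rexo2 at 0.79. At 10 days library totals gave 4 falls and 8 rises among the translation factors, 2 and 16 among the assembly factors and 0 and 14 in transcription and RNA processing. Of all tested genes 80.2% were called with that scaling, 10.1% as lower. Guf1, Rbfa, Mtfmt, Rpusd3 and Rexo2 kept their calls with library totals, and Fastk did not (-0.14, edgeR adjusted p = 0.0589).

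Of 10 regulators known for mitochondrial gene expression, 4 fell and 4 rose at 10 days, against 2 and 6 with library totals. Esrra, a nuclear receptor that acts on genes of oxidative metabolism, measured 188, 201, 211 and 207 CPM at 0 days and 74.3, 62.4, 63.3 and 58.3 CPM at 10 days. It fell by 1.64 (edgeR adjusted p = 2.35e-08), without overlap. Myc, a factor known to raise ribosome production, measured 5.00, 5.65, 3.61 and 2.59 CPM against 29.1, 35.7, 43.3 and 40.2 CPM. Its rise of log2 3.13 (edgeR adjusted p = 2.39e-09) was the largest of the list. Both kept their calls with library totals.

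The other subunits of 2-oxoglutarate dehydrogenase were set beside Mrps36, a choice made after the data were seen. At 10 days the log2 change was -1.09 in Ogdh, -1.13 in Dlst, -1.22 in Dld and -1.40 in Mrps36. At 60 days Ogdh, Dlst and Dld were still called lower, at -1.28, -0.45 and -0.66, while Mrps36 stood at 0.09 (edgeR adjusted p = 0.518). Ogdh measured 949, 1113, 1025 and 950 CPM at 0 days and 601, 375, 376 and 311 CPM at 60 days, and the groups did not overlap. With library totals Ogdh and Dld stayed called lower at 60 days and Dlst did not (-0.04, edgeR adjusted p = 0.657). Mrps36 was then called higher, at 0.50 (edgeR adjusted p = 0.000766), where the median of all tested genes was 0.45.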

How the data were processed

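The authors deposited 1 table of raw fragments per gene in 16 libraries, and its values are expected counts that are not scaled for depth or gene length. Per the submitters' processing notes, bcl2fastq 1.8.4, FastQC, TopHat2 2.0.9, Bowtie2 2.1.0.0, Cufflinks and Cuffdiff 2.1.1 were used with build rn5, and annotation, strand setting and filters are not given in the sources used here. The labels' protocols name a miRNeasy extraction and a TruSeq mRNA kit that does not mark strand. Group and time came from each sample's label.

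Rounded counts of 11658 genes passed filterByExpr (by group), 5489 did not, and no value of a member was fractional (0 of them). A single edgeR quasi-likelihood fit (robust, TMM factors, group alone) took in the 16 libraries, with Benjamini-Hochberg adjustment over all tested genes. A gene was called at an adjusted p under 0.05, and "fell" or "rose" is used only of called genes. SE is that of the log2 fold change. Floors are 3 counts of a library's total and cover counting error only, since PCR copies are not independent molecules. Replicate libraries differed by far more than sampling noise, with a chi-square per gene of 13.3 to 102 over 24 pairs.

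The members and the lists set beside them were chosen with earlier results of these data known. Genes named are, for 10, 30 and 60 against 0 days and 60 against 10 days, up to 5 largest rises and falls among called members with a mean of at least 5 CPM and no overlap between groups. Also named are members called nowhere or untested, a fixed list of 15 genes by function, proteins under other symbols, the largest called rise and fall of each further list, and the 3 genes most like the members' mean. No test was made over the members as a set.

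Results were recomputed with DESeq2, with RLE or upper-quartile factors, with library totals, with no filter, with a mean of at least 1 CPM, with an adjusted p under 0.01, within the 2 groups compared, with a replicate block, with the letter that ends each title, and without each library. On simulated data of the 10-day comparison with 11512 genes, 76 of 98 genes changed 2-fold and 41 of 99 changed 1.41-fold were called. There were 8 false calls, and 0 calls where nothing changed. Few genes were changed there, about as many up as down. The simulation therefore does not test TMM scaling where many genes differ, as in these data. RefSeq (GRCr8) gave names for 68 members, neighbours and promoters only. Tests ran in edgeR 4.0.16 and DESeq2 1.42.0 under R 4.3.3, and figures in matplotlib 3.10.9 under python 3.11.15.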

Additional observations from a re-analysis of the deposited data

Results flagged for a closer look

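In 241 groups of 4 libraries examined, 6 held 1 library far from the other 3 for the group's range, and chance alone marks about 1 in 20 such groups. Mrpl17 stood at 210 CPM in library 2 of the 10-day group, against 187 to 191 CPM in the others. Mrps15 was at 127 CPM in library 1 of that group, against 137 to 139 CPM. Mrps30 was at 44.8 CPM in its library 3, against 46.0 to 46.2 CPM, a narrow group throughout. Mrpl1 was at 0.106 CPM in library 1 of the 30-day group and at 0 in the others. Outside the members, Rbfa stood at 23.6 CPM in library 1 of the 10-day group, against 20.1 to 20.3 CPM, and Rexo2 at 56.5 CPM there, against 68.9 to 70.5 CPM. Library 1 of the 10-day group held 3 of the 6.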

How the results depend on the processing

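TMM, RLE factors, DESeq2, no filter and a mean of at least 1 CPM kept the sign of the members' median in every comparison, and the scaling decided most else. With library totals the members' medians were 0.018, 0.37 and 0.29 at 10, 30 and 60 against 0 days, 0.23 at 30 against 10 days, -0.027 at 60 against 30 days and 0.18 at 60 against 10 days. In the same order, the medians of all tested genes were 0.72, 0.54, 0.45, -0.13, -0.094 and -0.26. The members' median at 60 against 30 days was also below 0, at -0.0025, without library 2 of the 60-day group. Lower and higher calls of members with library totals were 18 and 26 at 10 days, 5 and 45 at 30 days (50 in all) and 3 and 44 at 60 days (47 in all). There were 6 lower at 30 against 10 days, 8 and 4 at 60 against 30 days and 12 lower at 60 against 10 days. Of the 51 members lower at 10 days, 18 were still called lower, 12 kept their sign without a call, 10 turned without a call and 11 were called higher. Upper-quartile factors gave medians of 0.0010 at 30 days and 0.019 at 60 days, against 0.17 and 0.18 for all tested genes. They called 16 members lower and 15 higher at 30 days, 11 lower and 17 higher at 60 days and 1 lower at 30 against 10 days.

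At an adjusted p under 0.01, 3 members were higher at 30 days, 14 lower and 2 higher (16 in all) at 60 days, 1 lower at 30 against 10 days and 2 higher (4 in all) at 60 against 30 days. With no filter 2 were higher at 60 days, and with the 2 compared groups alone 2 were higher (4 in all) at 60 against 30 days.

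Leaving out 1 library gave 4 to 8 higher at 30 days, 14 to 24 lower and 2 to 13 higher at 60 days, 1 to 4 lower at 30 against 10 days, and 3 to 13 higher (5 to 17 in all) at 60 against 30 days. The 1 lower call at 30 against 10 days came without library 2 of the 10-day group, the 2 higher calls at 60 days without library 2 or 3 of the 60-day group or library 2 of the unoperated group, and 4 higher calls at 30 days without that library or library 3 of the 30-day group. Mrps16 at 30 days lost its call without unoperated library 1 or 2 or 30-day library 3 or 4, and Mrpl41 without unoperated library 1, 2 or 4 or 30-day library 1 or 3.

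With library totals the sign at 10 days turned to 0.54 in Mrpl55, 0.63 in Mrps17, 0.51 in Mrps34, 0.30 in Mrpl10, 0.39 in Mrps12, 0.59 in Mrps7, 0.019 in Mrps18a, 0.021 in Mrps18b, 0.26 in Mrps18c, 0.017 in Mrps30, 0.63 in Dap3, 0.12 in Ptcd3, 0.46 in Aurkaip1, 0.026 in Ict1 and 0.63 in Mrp63. With upper-quartile factors it turned in Mrps17 (0.028), Dap3 (0.024) and Mrp63 (0.023). Without 1 library the range crossed 0 in Mrps17 (-0.093 to 0.0081), Mrps2 (-0.0079 to 0.15), Dap3 (-0.073 to 0.0069) and Mrp63 (-0.076 to 0.015), none of them called.

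With the suffix of the column names as a replicate block, the calls lower and higher were 51 and 3 at 10 days, 28 and 7 at 30 days, 21 and 3 at 60 days and 6 and 49 at 60 against 10 days. Deviations of libraries with the same suffix had a mean correlation of 0.0013 (-0.24 to 0.22, 24 pairs). Libraries with different suffixes were not set beside them, so this cannot decide whether the suffix pairs libraries. The causes of these differences were not tested. No comparison covers Mrpl1, Mrpl30 and Mrpl36, and among tested members counting error is widest in Mrps10, with 139 fragments in its lowest library.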
